A study of Mus musculus with 24 samples.

Results

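Aminoacyl-tRNA synthetases attach each amino acid to the tRNA that carries it into the ribosome. Genes encoding them were picked by name alone and numbered 37 of the 41710 genes in each deposited table. Of these, 20 encode cytosolic enzymes and 17, with names ending in 2, encode mitochondrial enzymes. Some cytosolic synthetases sit together in a multisynthetase complex held by scaffold proteins, and others work free in the cytosol. Kars and Gars each supply both compartments from a single gene. Many cytosolic synthetase genes are known targets of ATF4, the transcription factor that cells raise when amino acids run short, while Myc and the Mlx network bind the E-box element.

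Poly-A RNA was sequenced with a directional kit from mouse embryonic fibroblasts (MEFs) in 24 libraries, 3 for each of 8 groups, and expression was given as CPM, the reads of a gene scaled for library size. The groups were WT, MycKO, MlxKO and double-knockout (DKO) cells, as primary cultures and as cultures immortalized with SV40 T-antigen. Knockout cells carried floxed Myc exons 2 to 3, floxed Mlx exons 3 to 7 or both, with a ROSA26-CreER recombinase switched on by 500 nM 4-hydroxytamoxifen for at least 7 days. In the paper, MEFs received this drug or its ethanol vehicle alone, and the drug was removed at least 3 days before later studies. The vehicle was not tied by name to the sequenced WT cells. The paper's WT cells were MEFs with these loci intact, and it describes such cells as bearing floxed Myc alleles. Each group was a single line pooled from at least 6 embryos of embryonic day 14 to 16, and its libraries were triplicate RNAs of that line. Primary cells were taken at day 10, and immortalized knockout cells were treated for 10 days while immortalized WT cells were kept free of the drug. Adjusted p values therefore measure the spread between these samples, which may be technical, and not the spread between mice. With 3 libraries against 3, a 2-sided exact permutation test of a single gene cannot go below p = 0.1. Effects of the drug, of the line and of the deleted gene cannot be told apart with 1 line per group. The paper reports primary MycKO and DKO cells as growth-arrested, and most immortalized MycKO cells as tetraploid or pseudo-tetraploid. The part of these states in the results was not tested.

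Depth was similar between groups. Reads on genes in primary libraries 1, 2 and 3 numbered 17227117, 17887312 and 16692411 in WT, 17897409, 15986856 and 18502811 in MlxKO, 18766487, 16081463 and 20966163 in MycKO and 20361685, 19594853 and 17667784 in DKO. In immortalized libraries they numbered 17541112, 17887100 and 17698255 in WT, 18938091, 18298133 and 17944748 in MlxKO, 19851300, 18831710 and 18327981 in MycKO and 18119003, 18386642 and 18500836 in DKO. At these depths 3 reads corresponded to 0.145 to 0.196 CPM, so every synthetase gene was measured far above that floor, the lowest single value being 2.32 CPM. Whole cultures were sequenced, so fewer cells expressing a gene and less of its RNA per cell cannot be told apart.

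Fibroblast markers were checked as a list in both kinds of culture. Summed over 10 fibroblast markers, primary libraries held 42753, 43766 and 46398 CPM in WT, 48248, 48369.7 and 43844 in MlxKO, 55214, 56689 and 57558 in MycKO and 58031, 58686 and 57732 in DKO. Immortalized libraries held 33611, 33710.1 and 25576 CPM in WT, 18479.7, 22714 and 21518 in MlxKO, 18011, 24224 and 22886 in MycKO and 34569, 30564 and 26722 in DKO. Col1a1 was the most abundant of these markers, with a mean of 20076.3 CPM in primary and 9208.5 CPM in immortalized libraries, and no fibroblast marker was at 0. Lum, however, lay at 0.102 CPM in immortalized MycKO library 1, below the level of 3 reads. In primary MycKO and DKO cells, 8 of the 10 rose and 1 fell against WT, and in MlxKO 3 rose and 1 fell. Among all genes 20.4%, 24% and 3.75% rose in MycKO, DKO and MlxKO, and 21.9%, 25.5% and 5.14% fell. Immortalized markers went both ways against WT, with 2 higher and 3 lower in MycKO, from -2.27 for Lum to 4.18 for Thy1, 2 and 1 in MlxKO, and 1 and 1 in DKO. Leaving out WT library 3 made these 2 and 4, 3 and 3, and 1 and 2. Shares of all genes higher and lower, in the same order, were 24.4% and 23.5%, 19.1% and 19.9%, and 10.4% and 8.51%. Without that library they were 27.3% and 26.7%, 23.1% and 23.8%, and 12% and 10.1%.

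Markers of other cell types moved with the groups. Summed over 10 macrophage markers, primary libraries held 578, 463 and 301 CPM in WT, 327, 408 and 369 in MlxKO, 78.0, 53.2 and 59.0 in MycKO and 117, 108 and 239.6 in DKO. Lyz2 led them with a mean of 137 CPM, all 10 fell in MycKO and in DKO cells, the median log2 fold changes were -2.55 and -1.59, and none was at 0 in every library. The sum of 5 epithelial markers was 29.5, 28.3 and 25.4 CPM in WT, 7.84, 8.49 and 10.8 in MlxKO, 7.15, 6.41 and 9.07 in MycKO and 6.64, 5.86 and 6.57 in DKO, led by Krt19 at 6.48 CPM. Over 5 endothelial markers it was 13.9, 14.3 and 15.5 CPM in WT, 3.52, 4.61 and 4.37 in MlxKO, 5.32, 8.83 and 7.97 in MycKO and 5.06, 5.92 and 5.59 in DKO, led by Kdr at 5.88 CPM. The skeletal muscle sum, over 5 markers, was 138, 136 and 123 CPM in WT, 70.7, 64.9 and 65.7 in MlxKO, 80.0, 80.3 and 81.3 in MycKO and 122, 129.7 and 119.5 in DKO, led by Des at 57.0 CPM. For 5 neural and glial markers it was 62.9, 67.8 and 58.0 CPM in WT, 57.1, 56.2 and 49.0 in MlxKO, 96.8, 84.4 and 101 in MycKO and 69.0, 66.2 and 67.0 in DKO, led by Tubb3 at 55.4 CPM. None of these markers was at 0 in every primary library, and their part in the synthetase results was not tested.

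Immortalized cells held few macrophage transcripts, with a sum of 7.73, 7.82 and 8.77 CPM in WT, 10.4, 12.4 and 10.3 in MlxKO, 6.44, 7.25 and 5.80 in MycKO and 10.3, 10.8 and 11.5 in DKO, Cd14 highest at 5.04 CPM and 2 of the 10 markers at 0 throughout. Muscle markers were highest in MycKO. The skeletal muscle sum was 22.7, 20.6 and 13.2 CPM in WT, 9.72, 10.4 and 9.49 in MlxKO, 191, 226 and 231 in MycKO and 91.0, 85.6 and 89.1 in DKO, led by Acta1 at 83.1 CPM with 2 markers at 0 throughout. The endothelial sum was 4.10, 5.05 and 3.10 CPM in WT, 7.11, 5.66 and 6.99 in MlxKO, 14.4, 18.1 and 19.1 in MycKO and 8.59, 7.64 and 9.002 in DKO, led by Kdr at 6.93 CPM with 1 at 0 throughout. Over the epithelial markers it was 19.0, 21.97 and 11.5 CPM in WT, 22.2, 35.2 and 35.4 in MlxKO, 20.1, 20.8 and 18.1 in MycKO and 33.4, 28.7 and 26.8 in DKO, led by Krt19 at 22.7 CPM with none at 0 throughout. For neural and glial markers it was 3.16, 4.16 and 8.70 CPM in WT, 7.55, 10.3 and 10.4 in MlxKO, 11.6, 13.1 and 12.6 in MycKO and 4.38, 4.41 and 3.65 in DKO, led by Tubb3 at 6.99 CPM with 1 at 0 throughout. The part of these markers in the immortalized results was likewise not tested.

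Immortalized WT library 3 stood apart from the other WT libraries of its group. In it, 10.7% of the 12880 genes tested lay more than 1 log2 unit from the mean of the other 2 libraries of the group. The same measure gave 2.81% and 3.63% for WT libraries 1 and 2, where that mean includes library 3. It gave at most 1.87% for any other immortalized library and at most 0.473% for any primary library. Pdgfra was at 98.8, 116 and 565 CPM in WT libraries 1, 2 and 3, and Thy1 was at 14.9, 21.1 and 124. Counts and medians over the set, sums and the leading values of immortalized knockouts against WT are therefore also given without that library.

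The transcripts of the deleted genes were checked in every library first. In primary cells Myc was at 100.1, 89.8 and 91.8 CPM in WT, 85.6, 89.6 and 87.3 in MlxKO, 25.8, 26.8 and 26.8 in MycKO and 21.6, 22.9 and 19.9 in DKO libraries. Every MycKO and DKO library lay below every WT library, with log2 fold changes of -1.79 (adjusted p = 5.95e-11) and -2.08 (adjusted p = 4.24e-12), while MlxKO gave -0.10 (adjusted p = 0.427). Mlx was at 26.0, 20.53 and 24.5 CPM in WT, 13.0, 13.5 and 13.97 in MlxKO, 21.1, 17.3 and 20.52 in MycKO and 11.8, 12.0 and 9.73 in DKO libraries. It fell in MlxKO and DKO cells, by log2 0.76 (adjusted p = 4.05e-04) and 1.02 (adjusted p = 1.48e-06), with no overlap with WT, and MycKO gave -0.26 (adjusted p = 0.0754). That MycKO value passed without WT library 2, at -0.35 (adjusted p = 0.0284), and with scaling by library totals, at -0.36 (adjusted p = 0.0154), with adjusted p between 0.0154 and 0.303 over all alternatives but joint calling. Joint calling by limma, edgeR and DESeq2 did not call it. That alternative has no p value of its own, so this and later ranges of adjusted p leave it out.

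In immortalized cells Myc was at 48.1, 39.9 and 178 CPM in WT, 72.4, 82.8 and 79.5 in MlxKO, 17.2, 11.0 and 9.96 in MycKO and 8.02, 5.77 and 4.25 in DKO libraries. WT library 3 thus held far more Myc RNA than the other WT libraries. Myc fell in MycKO and DKO cells, by log2 2.41 (adjusted p = 8.17e-04) and 3.38 (adjusted p = 3.85e-04), with each of their libraries below each WT library. MlxKO gave 0.16 (adjusted p = 0.798). With WT library 3 left out, the Myc values were -1.75 (adjusted p = 2.33e-05) in MycKO, -2.71 (adjusted p = 1.90e-06) in DKO and 0.82 (adjusted p = 0.00955) in MlxKO, where Myc then rose. Over all alternatives but joint calling the adjusted p lay between 2.89e-06 and 0.0124 in MycKO, 2.19e-10 and 0.0199 in DKO and 0.00955 and 0.9 in MlxKO. Immortalized Mlx was at 25.1, 23.5 and 20.51 CPM in WT, 17.0, 12.4 and 12.1 in MlxKO, 27.8, 25.1 and 22.4 in MycKO and 14.5, 18.04 and 17.7 in DKO libraries, with a MlxKO log2 fold change of -0.71 (adjusted p = 0.00471). In DKO cells the value was -0.44 (adjusted p = 0.0694), short of the threshold, although all 3 DKO libraries lay below all 3 WT libraries. It passed without WT library 3, at -0.52 (adjusted p = 0.034), without MlxKO library 1, at -0.44 (adjusted p = 0.0484), and under the GC and length correction, at -0.45 (adjusted p = 0.0345), with adjusted p between 0.034 and 0.233 over all alternatives but joint calling, which did not call it.

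Synthetase genes differed widely in level. Divided by the length of the canonical transcript, WT levels of the 20 cytosolic genes in primary cells ran from 20.9 to 165 CPM per kb with a median of 46.2, and those of the 17 mitochondrial genes from 1.23 to 32.5 with a median of 3.36. The highest cytosolic genes were Nars, for asparagine, at 165 ± 4.54 (SD, n = 3), and Gars, for glycine, at 161 ± 6.21, and the lowest was Cars, for cysteine, at 20.9 CPM per kb. Among mitochondrial genes Lars2, for leucine, was highest at 32.5 ± 11.3, followed by Iars2, for isoleucine, at 15.7 ± 0.314, and Nars2 was lowest at 1.23 CPM per kb. Immortalized WT cells had cytosolic levels of 15.8 to 158 with a median of 52.4, and mitochondrial levels of 1.19 to 64.9 with a median of 3.30 CPM per kb. There Gars led the cytosolic genes at 158 ± 18.5 and Lars2 the mitochondrial ones at 64.9 ± 11.9 CPM per kb.

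Primary MycKO cells had lower RNA for most cytosolic synthetase genes and for a minority of mitochondrial ones. Of the 20 cytosolic genes 15 fell, with a median log2 fold change of -0.27, and of the 17 mitochondrial genes 5 fell, with a median of -0.12. Over all 13101 genes tested 21.9% fell and 20.4% rose, with a median of 0.00. No synthetase gene rose with limma. At unadjusted p under 0.05 the count was 1, edgeR and DESeq2 each called 0, and they counted 18 and 20 lower. All 3 MycKO libraries lay below all 3 WT libraries for 16 cytosolic and 5 mitochondrial genes, and no synthetase gene had all 3 above, while over all genes the shares were 24.6% below and 23.4% above.

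The largest falls among complex members were those of Kars, which charges lysine tRNA, and Lars, which charges leucine tRNA. Kars was at 146, 141 and 129 CPM in WT, 121, 112 and 116 in MlxKO, 90.1, 91.9 and 89.0 in MycKO and 77.8, 85.0 and 76.5 in DKO libraries, so that every knockout library lay below every WT library. Its MycKO mean was 90.3 ± 1.48 against 138 ± 8.31 CPM in WT (SD, n = 3), a log2 fold change of -0.61 (95% interval -0.75 to -0.47, adjusted p = 1.45e-06). Lars was at 172, 175 and 173 CPM in WT, 179, 186 and 180.4 in MlxKO, 118, 136 and 117 in MycKO and 111, 109.9 and 112 in DKO libraries. MycKO and DKO libraries lay below all WT and MlxKO libraries, and the MycKO log2 fold change was -0.49 (95% interval -0.62 to -0.36, adjusted p = 9.49e-06). In all, 7 of the 8 complex members fell, with a median of -0.29. Iars, Dars, Mars1, Qars and Rars changed by -0.40, -0.30, -0.28, -0.25 and -0.23, although the calls for Dars and Rars ended under the GC and length correction. Eprs, the fused glutamate and proline enzyme, gave -0.10 (adjusted p = 0.17).

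Among the 12 free cytosolic genes 8 fell, with a median of -0.21, led by Vars for valine. Vars was at 212, 208 and 201.3 CPM in WT, 179.8, 194 and 194 in MlxKO, 138, 132 and 139.9 in MycKO and 121, 129.5 and 117 in DKO libraries. All knockout libraries lay below all WT libraries, and the MycKO log2 fold change was -0.59 (95% interval -0.72 to -0.47, adjusted p = 7.70e-07). Farsb and Farsa, the subunits of the phenylalanine enzyme, fell by log2 0.44 and 0.32, Gars by 0.34 and Tars, for threonine, by 0.32. Values for Hars (-0.24), Yars (-0.19) and Cars (-0.16) passed the threshold but did not in 12, 1 and 12 of the 22 alternatives. The other 4 gave 0.04 (adjusted p = 0.615) for Aars, -0.03 (adjusted p = 0.702) for Nars, -0.04 (adjusted p = 0.609) for Wars and -0.12 (adjusted p = 0.112) for Sars.

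Mitochondrial genes that fell included Nars2, for asparagine, and Yars2, for tyrosine. Nars2 was at 8.63, 7.71 and 9.29 CPM in WT, 8.58, 9.39 and 8.11 in MlxKO, 5.16, 5.82 and 5.88 in MycKO and 7.92, 6.29 and 4.55 in DKO libraries. MycKO libraries all lay below WT, whereas DKO libraries overlapped it, and the MycKO log2 fold change was -0.53 (95% interval -0.84 to -0.21, adjusted p = 0.00881). Yars2 was at 25.8, 21.3 and 20.9 CPM in WT, 17.8, 20.9 and 19.7 in MlxKO, 17.0, 16.5 and 16.1 in MycKO and 13.6, 12.2 and 13.3 in DKO libraries. MycKO and DKO libraries all lay below WT, with a MycKO log2 fold change of -0.43 (95% interval -0.64 to -0.22, adjusted p = 0.00228). Mars2 (-0.39) and Rars2 (-0.29) passed the threshold but not in 5 and 13 of the 22 alternatives. Pars2 gave -0.33 and Lars2 0.47, neither past the threshold.

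Cytosolic synthetases known as ATF4 targets were counted apart from the others in primary MycKO cells. Of these 13 genes 8 fell, with a median of -0.19, against 7 of 7 for the other cytosolic genes, with a median of -0.30. By structural class, 8 of 9 class I and 7 of 10 class II cytosolic genes fell, while 21.9% of all genes did.

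Genes tied to tRNA by other roles were also counted. Of 17 genes for scaffold proteins, tRNA export, tRNA processing and paralogous enzymes, 9 fell in primary MycKO cells, with a median of -0.26. Aimp2, a scaffold of the complex, was at 41.3, 38.8 and 38.9 CPM in WT, 35.3, 34.4 and 43.0 in MlxKO, 25.4, 27.8 and 26.6 in MycKO and 25.1, 25.03 and 22.4 in DKO libraries. MycKO and DKO libraries all lay below WT, with log2 fold changes of -0.56 (adjusted p = 9.13e-05) and -0.69 (adjusted p = 8.28e-06). Tarsl2, a second threonine enzyme, fell by log2 0.68 and Trnt1, which adds the tRNA tail, by 0.47. RNA polymerase III, which transcribes tRNA genes, had 8 of 24 subunit and factor genes lower with a median of -0.15, where 21.9% of all genes fell. Scaling by library totals made that 14 lower, with a median of -0.25. Of all genes called, 31.4% then rose, against 48.3% with the scaling as deposited. Among them Polr1c fell by log2 0.56 (adjusted p = 1.85e-04) and Gtf3a by 0.46 (adjusted p = 4.95e-04). Polr3g gave -0.68 (adjusted p = 0.0133), but -0.58 (adjusted p = 0.0626) without WT library 2 and -0.43 (adjusted p = 0.0855) without MycKO library 3. Its adjusted p lay between 9.64e-04 and 0.0855 over all alternatives but joint calling.

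Of Atf4 and 23 of its other targets, 14 fell and 2 rose in primary MycKO cells, with a median of -0.26. Among all genes 21.9% fell and 20.4% rose. Slc7a11, the cystine carrier, was at 26.2, 23.2 and 25.2 CPM in WT, 31.5, 29.6 and 23.0 in MlxKO, 7.15, 11.6 and 9.66 in MycKO and 9.25, 10.6 and 8.75 in DKO libraries. MycKO and DKO libraries lay below all WT libraries, with log2 fold changes of -1.33 (adjusted p = 1.89e-06) and -1.30 (adjusted p = 1.69e-06). Cth, for cysteine synthesis, and Psat1, for serine synthesis, fell by log2 1.13 and 0.84 in MycKO. Atf4 RNA itself was at 287, 281 and 245 CPM in WT, 290.2, 265 and 286 in MlxKO, 266, 229.8 and 269 in MycKO and 278, 268 and 281 in DKO libraries, and gave -0.09 (adjusted p = 0.357) in MycKO, 0.05 (adjusted p = 0.717) in MlxKO and 0.03 (adjusted p = 0.77) in DKO.

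Primary MlxKO cells had few synthetase genes past the threshold. Among cytosolic genes 1 rose and 1 fell, with a median of 0.03, and among mitochondrial genes 1 rose, with a median of 0.09. Over all genes 3.75% rose and 5.14% fell. MlxKO libraries lay wholly above WT for 5 cytosolic and 3 mitochondrial genes and wholly below for 2 cytosolic ones, and overlapped WT for 13 and 14, with 14% of all genes wholly above and 14.4% wholly below. The 3 calls became 1 without WT library 1, WT library 2 or MlxKO library 3, and 5 under the GC and length correction, where 7.28% of all genes were higher and 8.02% lower. Lars2 was at 132, 81.2 and 169.9 CPM in WT, 244, 229 and 225 in MlxKO, 165, 168 and 175 in MycKO and 241, 144 and 154 in DKO libraries. All MlxKO libraries lay above all WT libraries, MycKO and DKO libraries overlapped WT, and the MlxKO log2 fold change was 0.92 (95% interval 0.50 to 1.35, adjusted p = 0.0077), past the threshold in all 22 alternatives. WT libraries of Lars2 were themselves spread, at 128 ± 44.5 CPM (SD, n = 3), and leaving out 1 library moved the value between 0.63 and 1.16.

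Sars, for serine, was at 296, 288 and 296 CPM in WT, 333, 339.6 and 373 in MlxKO, 282, 253 and 274 in MycKO and 229.7, 228 and 217 in DKO libraries. Each MlxKO library lay above each WT library, with a log2 fold change of 0.24 (95% interval 0.12 to 0.37, adjusted p = 0.0181). This call ended without WT library 1 or 2 or MlxKO library 3, with values of 0.25 (adjusted p = 0.0584), 0.23 (adjusted p = 0.0809) and 0.19 (adjusted p = 0.0754). The fall of Kars in MlxKO was -0.25 (95% interval -0.39 to -0.11, adjusted p = 0.022). It was -0.21 (adjusted p = 0.119) without WT library 1, -0.24 (adjusted p = 0.0919) without WT library 2, -0.22 (adjusted p = 0.0992) without MlxKO library 2 and -0.25 (adjusted p = 0.0593) without MlxKO library 3. Over all but joint calling the adjusted p lay between 0.00226 and 0.0809 for Sars and between 0.00191 and 0.119 for Kars.

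In primary MlxKO cells the related and polymerase III lists had medians of -0.0015 and 0.03, while the ATF4 list lay mostly above WT. Of Atf4 and its other targets 4 of 24 rose, against 3.75% of all genes, only 2 lay below 0 and the median was 0.16. Under the GC and length correction 12 of them were higher, where 7.28% of all genes were higher and 8.02% lower. Cth was at 0.70 (adjusted p = 1.02e-04), Trib3 at 0.48 (adjusted p = 0.00102) and Slc6a9 at 0.41 (adjusted p = 0.00408). Of the 17 related genes 1 rose, the tRNA exporter Xpot, at 0.27 (adjusted p = 0.0135). It became 0.26 (adjusted p = 0.0656), 0.25 (adjusted p = 0.0709) and 0.25 (adjusted p = 0.0649) without WT library 1, WT library 2 and MlxKO library 2, with adjusted p between 0.00133 and 0.0709 over all alternatives but joint calling.

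Primary DKO cells had lower RNA for nearly all cytosolic synthetases. Of 20 cytosolic genes 19 fell, with a median of -0.44, and of 17 mitochondrial genes 5 fell and 1 rose, with a median of -0.19. Over all genes 25.5% fell and 24% rose. For all 20 cytosolic genes every DKO library lay below every WT library, and the same held for 4 mitochondrial genes and for 30.8% of all genes. Complex members fell in 8 of 8 cases with a median of -0.51, and free cytosolic genes in 11 of 12 with a median of -0.44.

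Kars, Farsb and Vars fell most. Kars averaged 79.8 ± 4.56 CPM in DKO (SD, n = 3), a log2 fold change of -0.79 (95% interval -0.93 to -0.65, adjusted p = 5.95e-08). Vars averaged 122 ± 6.37 CPM, at -0.75 (95% interval -0.88 to -0.63, adjusted p = 3.94e-08). Farsb was at 73.7, 68.9 and 76.6 CPM in WT, 66.0, 71.2 and 69.3 in MlxKO, 49.6, 62.9 and 49.3 in MycKO and 43.7, 45.0 and 39.0 in DKO libraries. MycKO and DKO libraries lay below WT without overlap, and DKO gave -0.77 (95% interval -0.96 to -0.58, adjusted p = 2.92e-06). The remaining 16 that passed ran from -0.65 for Rars to -0.24 for Eprs. Aars, for alanine, was at 464, 456 and 429 CPM in WT, 490.4, 492 and 489.8 in MlxKO, 472, 434 and 481 in MycKO and 419, 416 and 407 in DKO libraries, with a DKO value of -0.12 (adjusted p = 0.0896).

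In the mitochondrial set Yars2 had a log2 fold change of -0.75 (95% interval -0.96 to -0.54, adjusted p = 1.07e-05) in DKO cells. Mars2 and Tars2 fell by log2 0.50 and 0.43, and Nars2 gave -0.42 (adjusted p = 0.0267), a call that ended in 5 of 22 alternatives. Lars2 gave 0.51 (95% interval 0.09 to 0.94, adjusted p = 0.0427), past the threshold in 11 of 22 alternatives. Among the others, its value was 0.50 (adjusted p = 0.115) with DESeq2, 0.43 (adjusted p = 0.0827) with scaling by library totals, 0.57 (adjusted p = 0.0541) without WT library 1, 0.22 (adjusted p = 0.279) without WT library 2 and 0.28 (adjusted p = 0.253) without DKO library 1. Leaving out MlxKO library 1, 2 or 3 gave adjusted p values of 0.0567, 0.0525 and 0.0566. Joint calling did not call it, and over the other alternatives its adjusted p lay between 0.00328 and 0.279.

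Summed over the 20 cytosolic genes, primary libraries held 4006, 3963 and 3963 CPM in WT, 4039.5, 4080.5 and 4201 in MlxKO, 3392, 3479 and 3400.4 in MycKO and 3014, 3049 and 2921 in DKO. Group means were 3977 ± 24.6 CPM in WT, 4107 ± 83.8 in MlxKO, 3424 ± 47.9 in MycKO and 2995 ± 66.0 in DKO (SD, n = 3). The mitochondrial sum without Lars2, which alone was the most abundant of them, was 289, 292 and 280.1 CPM in WT, 292, 305 and 298 in MlxKO, 264, 261 and 254 in MycKO and 260.1, 252 and 243 in DKO. Both of these sums were below WT in every MycKO and DKO library. With Lars2 included, the sum over all 17 mitochondrial genes was 422, 373 and 450.0 CPM in WT, 536, 534 and 524 in MlxKO, 429, 429.9 and 429 in MycKO and 501, 395 and 397 in DKO. It overlapped WT in MycKO and DKO and lay above WT in every MlxKO library. As a share of all CPM in the column, these positions were the same, and the sum without Lars2 was also above WT in every MlxKO library.

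Of the related genes 9 of 17 fell in primary DKO cells, with a median of -0.35, where 25.5% of all genes fell and 24% rose. Eef1e1, a scaffold of the complex, fell by log2 0.61 (adjusted p = 2.75e-05) and Elac2, which trims tRNA ends, by 0.59 (adjusted p = 6.26e-05). In the RNA polymerase III list 12 fell and 2 rose of 24, with a median of -0.23, led by Polr3g at -1.02 (adjusted p = 6.32e-04) and Polr1c at -0.71 (adjusted p = 1.61e-05). Gtf3a fell by log2 0.50, and scaling by library totals made this list 17 lower and 0 higher. Of Atf4 and its other targets 14 fell and 3 rose, with a median of -0.32, among them Psat1 at -1.07 (adjusted p = 2.01e-09) and Stc2 at -1.07 (adjusted p = 9.20e-07). Library totals made these counts 15 and 1. Of all genes called, 37.2% rose under library totals, against 48.5% with the scaling as deposited.

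Adding loss of Mlx to loss of Myc went with a further fall in some cytosolic genes. Against MycKO, DKO cells had 9 of 20 cytosolic genes and 1 of 17 mitochondrial genes lower, with medians of -0.17 and -0.02, while 11.0% of all genes fell and 10.6% rose. The count of 10 became 6 without DKO library 3 and 17 under the GC and length correction, where 15.4% of all genes were lower and 12.6% higher. DKO libraries lay wholly below MycKO libraries for 16 cytosolic genes, 1 mitochondrial gene and 18.9% of all genes. The falls were -0.44 (adjusted p = 5.72e-05) for Wars, -0.42 (adjusted p = 1.30e-04) for Rars, -0.31 (adjusted p = 0.00125) for Cars, -0.26 (adjusted p = 0.0056) for Sars and -0.24 (adjusted p = 0.00408) for Nars, all in every alternative. Farsb, Iars, Yars, Tars and Yars2 passed in fewer, at -0.33, -0.23, -0.22, -0.17 and -0.32. By place in the cell, 2 of 8 complex members and 7 of 12 free genes fell.

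Against MlxKO, which shares its DKO libraries with the comparison above, all 20 cytosolic genes fell, with a median of -0.53, and 6 mitochondrial genes fell, with a median of -0.24. Over all genes 25.9% fell and 23.3% rose. Values ran from -0.71 (adjusted p = 1.47e-07) for Lars to -0.22 (adjusted p = 0.00266) for Nars. DKO libraries lay below all MlxKO libraries for all 20 cytosolic and 8 mitochondrial genes, and for 32% of all genes. Related genes, the RNA polymerase III list and the ATF4 list had 10, 11 and 16 genes lower.

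The Myc-by-Mlx interaction asks whether loss of both genes differed from the sum of the single losses on the log2 scale. In primary cells 6 cytosolic genes and Lars2 passed, all below 0, with medians of -0.23 over cytosolic and -0.07 over mitochondrial genes, and 13.5% of all genes passed in either direction. By direction, 6.07% of all genes passed below 0 and 7.47% above. Of the 6, 5 were among the 13 ATF4 targets and 1 among the 7 others. Sars had the clearest value, -0.50 (95% interval -0.69 to -0.32, adjusted p = 6.78e-04), with its MlxKO libraries above and its DKO libraries below WT. Wars, for tryptophan, gave -0.49 (adjusted p = 9.14e-04), Cars -0.40 (adjusted p = 0.00429) and Rars -0.38 (adjusted p = 0.00822). Lars2 gave -0.88 (95% interval -1.48 to -0.28, adjusted p = 0.0494), but passed in 5 of 21 alternatives and was -0.59 (adjusted p = 0.102) without WT library 2, the adjusted p lying between 0.00515 and 0.184 over all but joint calling, which did not call it. The 7 calls became 4 without MlxKO library 2, DKO library 2 or DKO library 3, and 13 under the GC and length correction, where 9.94% of all genes passed below 0 and 9.23% above. Calls for Aars (-0.28) and Eprs (-0.27) ended in 6 and 9 alternatives.

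Immortalized MycKO cells had lower RNA for some cytosolic and some mitochondrial synthetases. Of the 20 cytosolic genes 10 fell, with a median of -0.32, and of the 17 mitochondrial genes 6 fell, with a median of -0.15. Over all 12880 genes tested 23.5% fell and 24.4% rose. Without WT library 3 the counts were 3 higher and 11 lower among cytosolic genes, and 3 higher and 6 lower among mitochondrial ones, so the total of 16 became 23. The medians were then -0.33 and -0.08, and 26.7% of all genes were lower and 27.3% higher. With all libraries limma called no synthetase gene higher, against 2 at unadjusted p under 0.05, 0 by edgeR and 1 by DESeq2. MycKO libraries lay wholly below WT for 10 cytosolic and 6 mitochondrial genes, and wholly above for 1 and 3, against 25.1% and 26% of all genes.

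Complex members fell in 5 of 8 cases, with a median of -0.51. Eprs was at 418, 376 and 316 CPM in WT, 227, 211 and 217 in MlxKO, 144, 194 and 178 in MycKO and 234, 242 and 229 in DKO libraries. All knockout libraries lay below all WT libraries, and MycKO gave -1.10 (95% interval -1.38 to -0.83, adjusted p = 3.47e-05), or -1.21 without WT library 3. Lars was at 234, 192 and 209 CPM in WT, 163, 139 and 138 in MlxKO, 86.5, 107 and 108 in MycKO and 102, 115 and 106 in DKO libraries. Its knockout libraries again all lay below WT, at -1.07 (95% interval -1.33 to -0.81, adjusted p = 2.73e-05) in MycKO, or -1.08 without that library. Iars, for isoleucine, was at 274, 220.3 and 308 CPM in WT, 209.6, 203 and 199.6 in MlxKO, 128, 160.4 and 157 in MycKO and 148, 153 and 142 in DKO libraries. It was below WT in every knockout library, with -0.84 (95% interval -1.12 to -0.56, adjusted p = 2.58e-04) in MycKO and -0.73 without WT library 3. Mars1 and Dars fell by log2 0.56 and 0.47, the latter in 18 of 22 alternatives, and gave -0.46 and -0.39 without WT library 3. Kars, Qars and Rars gave -0.11, -0.07 and 0.16, none past the threshold. With WT library 3 left out they gave -0.02, 0.02 and 0.25, Rars then passing as higher, and the complex had 5 lower and 1 higher with a median of -0.42.

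Free cytosolic genes fell in 5 of 12 cases, with a median of -0.20. These were Farsb at -0.61 (adjusted p = 0.00805), Gars at -0.58 (adjusted p = 6.93e-04), Vars at -0.46 (adjusted p = 0.0233), Tars at -0.46 (adjusted p = 0.00985) and Yars at -0.36 (adjusted p = 0.00578). These became -0.50, -0.65, -0.29, -0.33 and -0.39 without WT library 3. The call for Vars ended in 3 of the 22 alternatives, the omission of that library or of MycKO library 1 among them. The other 7 lay between -0.28 for Sars and 0.26 for Hars. Of these, Sars (-0.46), Aars (-0.33), Farsa (0.38) and Hars (0.52) passed once WT library 3 was omitted, which left 6 of the 12 free genes lower and 2 higher with a median of -0.31. ATF4 targets had 8 of 13 lower, with a median of -0.46, and other cytosolic genes 2 of 7, with a median of -0.07. The same omission gave 9 of 13 lower, with a median of -0.39, and for the others 2 lower and 3 higher of 7, with a median that turned to 0.02. Among all genes 23.5% were lower with all libraries, and 26.7% lower and 27.3% higher without WT library 3.

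In the mitochondrial set Lars2 was at 262, 206 and 298 CPM in WT, 128, 119 and 129.5 in MlxKO, 165, 109 and 166 in MycKO and 202, 166 and 120.1 in DKO libraries. Every knockout library lay below every WT library, and MycKO gave -0.81 (95% interval -1.25 to -0.36, adjusted p = 0.00725), or -0.68 without WT library 3. Wars2, for tryptophan, was at 16.6, 15.04 and 16.9 CPM in WT, 14.3, 10.3 and 10.9 in MlxKO, 10.8, 7.58 and 8.84 in MycKO and 12.6, 13.1 and 10.3 in DKO libraries. Its knockout libraries also lay below WT throughout, with -0.78 (95% interval -1.14 to -0.42, adjusted p = 0.00242) in MycKO, or -0.75 without that library. Nars2, Rars2 and Iars2 gave -0.49, -0.46 and -0.39, calls that ended in 11, 5 and 4 of the 22 alternatives. Without WT library 3 the call for Nars2 ended, at -0.34, while Fars2 (-0.64), Mars2 (0.62), Aars2 (0.42) and Cars2 (0.36) passed, from -0.39, 0.26, 0.36 and 0.26 with it. Ears2 gave -0.44 and Pars2 0.44, neither past the threshold.

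Related genes in immortalized MycKO cells comprised 8 lower and 1 higher of 17, with a median of -0.43. Xpot was at 295, 232 and 287 CPM in WT, 139.7, 131 and 132 in MlxKO, 104, 124 and 120.4 in MycKO and 136, 148 and 140.0 in DKO libraries. All knockout libraries lay below all WT libraries, and MycKO gave -1.21 (adjusted p = 5.77e-06), or -1.17 without WT library 3. Dtd1, which removes D-amino acids from tRNA, and Tarsl2 fell, with log2 fold changes of -1.18 and -1.08. In the RNA polymerase III list 7 fell and 1 rose of 24, with a median of -0.19. The shares of all genes that fell and rose were 23.5% and 24.4%. Polr3g, a subunit of the enzyme, was at 5.45, 4.61 and 16.4 CPM in WT, 5.95, 5.21 and 4.59 in MlxKO, 1.79, 2.20 and 2.19 in MycKO and 0.910, 1.75 and 0.939 in DKO libraries. MycKO gave -1.49 (adjusted p = 0.00365) and -0.98 without WT library 3, which lay highest of all libraries. Polr3f and Polr3b fell by log2 0.76 and 0.63, and gave -0.68 and -0.51 without it. Dtd1 and Tarsl2 gave -1.40 and -1.13 without it.

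Of Atf4 and its other targets 13 fell and 1 rose in immortalized MycKO cells, with a median of -0.47. Among all genes 23.5% fell and 24.4% rose. Slc7a11 was at 49.1, 29.1 and 29.9 CPM in WT, 21.6, 17.3 and 15.9 in MlxKO, 4.14, 5.16 and 5.51 in MycKO and 14.5, 14.1 and 13.1 in DKO libraries, with a MycKO value of -2.61 (adjusted p = 1.19e-06), or -2.72 without WT library 3. Aldh1l2, for mitochondrial folate, and Cth fell by log2 1.97 and 1.47, and gave -2.21 and -1.78 without it. Without WT library 3 the related, polymerase III and ATF4 lists had 6, 6 and 14 genes lower and 1, 3 and 1 higher, with medians of -0.33, -0.09 and -0.63. The shares of all genes were then 26.7% lower and 27.3% higher. Atf4 RNA itself was at 210.4, 231 and 172 CPM in WT, 201.4, 231 and 234 in MlxKO, 288, 282 and 295 in MycKO and 250.4, 226 and 241 in DKO libraries and was higher in MycKO, at 0.50 (adjusted p = 0.00399), with 0.13 (adjusted p = 0.407) in MlxKO and 0.24 (adjusted p = 0.171) in DKO.

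Immortalized MlxKO cells had 9 of 37 synthetase genes lower and 7 higher, near the shares of all genes, of which 19.9% fell and 19.1% rose. Among cytosolic genes 6 fell and 3 rose, with a median of -0.14, and among mitochondrial genes 3 fell and 4 rose, with a median of 0.03. Scaling by library totals turned the cytosolic median to 0.04, with 5 higher and 5 lower, and the GC and length correction turned the mitochondrial median to -0.06, with 1 higher and 2 lower. Of all genes called, 69.9% rose under library totals. Under the correction 10.9% of all genes were higher and 16.3% lower. Without WT library 3 the counts were 5 higher and 5 lower for cytosolic genes, and 6 higher and 3 lower for mitochondrial ones, with medians of -0.14 and 0.16, while 23.8% of all genes were lower and 23.1% higher. The total of 16 was 8 without WT library 1, 7 without MlxKO library 2 and 9 without MlxKO library 3. MlxKO libraries lay wholly below WT for 8 cytosolic and 5 mitochondrial genes and wholly above for 3 and 5, against 25.2% and 23.9% of all genes.

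Dars, for aspartate, was at 162, 124 and 167 CPM in WT, 92.9, 75.6 and 84.2 in MlxKO, 124, 96.9 and 105 in MycKO and 96.4, 117 and 122 in DKO libraries. Every knockout library lay below every WT library, and MlxKO gave -0.83 (95% interval -1.14 to -0.51, adjusted p = 0.00148), or -0.75 without WT library 3. Eprs averaged 218 ± 8.06 CPM in MlxKO (SD, n = 3) against 370.3 ± 51.3 in WT, at -0.75 (95% interval -1.03 to -0.47, adjusted p = 0.00123). Farsb was at 84.3, 66.8 and 95.1 CPM in WT, 50.8, 44.1 and 50.5 in MlxKO, 55.01, 49.9 and 53.4 in MycKO and 40.7, 56.6 and 61.5 in DKO libraries, again lower in all knockout libraries than in WT, with -0.74 (95% interval -1.09 to -0.39, adjusted p = 0.00433) in MlxKO. Without WT library 3 Eprs gave -0.86 and Farsb -0.62. Under the GC and length correction Dars, Eprs and Farsb gave -0.51, -0.54 and -0.58. Gars and Lars fell by log2 0.54 and 0.53, and Iars gave -0.38, past the threshold in 14 of 22 alternatives. These became -0.61, -0.53 and -0.27 without WT library 3, which ended the call for Iars and brought Vars (0.23 to 0.40) and Hars (0.28 to 0.55) past the threshold. Kars, in contrast, rose in MlxKO. It was at 111, 120.2 and 139 CPM in WT, 185, 179.8 and 181 in MlxKO, 108, 115 and 119 in MycKO and 109.8, 109 and 115 in DKO libraries, with MlxKO above WT throughout, the other knockouts overlapping WT, and a log2 fold change of 0.56 (95% interval 0.35 to 0.77, adjusted p = 0.00137), or 0.65 without WT library 3. Farsa (0.51) and Qars (0.31) passed in 17 of 22 alternatives each.

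Mitochondrial Lars2 had a log2 fold change in MlxKO cells of -1.0016 (95% interval -1.45 to -0.55, adjusted p = 0.00331), or -0.88 without WT library 3. Aars2, for alanine, was at 10.1, 9.65 and 11.1 CPM in WT, 14.4, 17.1 and 14.8 in MlxKO, 12.8, 13.5 and 14.3 in MycKO and 15.1, 11.4 and 10.00 in DKO libraries. MlxKO libraries all lay above WT libraries, at 0.54 (95% interval 0.21 to 0.87, adjusted p = 0.0159), or 0.59 without WT library 3. That call ended under the GC and length correction, at 0.17 (adjusted p = 0.356), and without MlxKO library 2, at 0.47 (adjusted p = 0.075), and its adjusted p lay between 0.00388 and 0.356 over all alternatives but joint calling. Sars2, Vars2 and Tars2 gave 0.53, 0.50 and 0.41, past the threshold in 17, 16 and 17 of 22 alternatives, and Nars2 gave -0.53, in 14. Omission of WT library 3 ended the call for Nars2, at -0.38, and brought Mars2 (0.13 to 0.49), Cars2 (0.30 to 0.40) and Fars2 (-0.19 to -0.44) past the threshold.

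Among the related genes 4 fell and 1 rose in immortalized MlxKO cells, with a median of -0.31. Scaling by library totals made that 2 lower and 2 higher, with a median of -0.14. Shares of all genes in these cells were 19.9% lower and 19.1% higher. Xpot was at -1.0005 (adjusted p = 1.24e-04) there, or -0.96 without WT library 3. In the RNA polymerase III list 4 fell and 4 rose, with a median of 0.14, and scaling by library totals made that 0 lower and 11 higher. Of all genes called, 69.9% rose under library totals, against 49.0% with the scaling as deposited, and the median over all genes was then 0.16. The GC and length correction ended every call in that list and turned its median to -0.04. Of Atf4 and its other targets 11 fell and 1 rose, with a median of -0.39. Library totals made these counts 7 and 3, with a median of -0.22. Vldlr, a lipoprotein receptor, was at 118, 77.7 and 25.9 CPM in WT, 20.03, 16.6 and 21.0 in MlxKO, 51.3, 53.3 and 50.3 in MycKO and 67.1, 70.1 and 69.8 in DKO libraries, and gave -1.65 (adjusted p = 0.00567) in MlxKO, or -2.27 without WT library 3. Aldh1l2 fell by log2 1.21 (adjusted p = 7.38e-04), while Ddit4 rose by 1.13 (adjusted p = 0.0015). They gave -1.05 and 0.64 under the GC and length correction, and -1.45 and 1.32 without WT library 3. With that library left out the related, polymerase III and ATF4 lists had 3, 3 and 14 genes lower and 1, 5 and 2 higher, with medians of -0.12, 0.14 and -0.41. Among all genes 23.8% were then lower and 23.1% higher.

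Immortalized DKO cells had 9 of 20 cytosolic genes lower, with a median of -0.29, and 1 of 17 mitochondrial genes lower, with a median of -0.17. Over all genes 8.51% fell and 10.4% rose. No synthetase gene rose with limma, against 1 at unadjusted p under 0.05 and 0 by edgeR or DESeq2. The total of 10 was 8, all cytosolic and lower, without WT library 3, where the medians were -0.29 and -0.11 and 10.1% of all genes were lower and 12% higher. It was 6 without WT library 1 or DKO library 3, and 5 without DKO library 1 or 2. DKO libraries lay wholly below WT for 12 cytosolic and 5 mitochondrial genes and wholly above for 2 mitochondrial ones, against 18% and 19.2% of all genes.

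Lars averaged 108 ± 6.54 CPM in immortalized DKO (SD, n = 3) against 212 ± 21.5 in WT, at -0.96 (95% interval -1.22 to -0.70, adjusted p = 3.13e-04). Iars averaged 148 ± 5.68 against 268 ± 44.5, at -0.84 (95% interval -1.12 to -0.56, adjusted p = 0.00111), and Eprs 235 ± 6.47, at -0.64 (95% interval -0.92 to -0.37, adjusted p = 0.00545). Without WT library 3 these became -0.97, -0.73 and -0.75. Gars passed in every alternative at -0.52 (adjusted p = 0.00494), or -0.59 without that library. Farsb, Tars, Vars, Mars1 and Yars gave -0.63, -0.51, -0.47, -0.39 and -0.33, calls that ended in 3, 3, 10, 7 and 5 of 22 alternatives. Omission of WT library 3 gave -0.52, -0.38, -0.30, -0.28 and -0.37 and ended those of Vars and Mars1, while Sars went from -0.17 to -0.34 and then passed as lower. Lars2 gave -0.66 (95% interval -1.11 to -0.21, adjusted p = 0.0433), and -0.54 (adjusted p = 0.0793) without WT library 3, -0.64 (adjusted p = 0.0995) without WT library 1, -0.69 (adjusted p = 0.0843) without DKO library 2 and -0.46 (adjusted p = 0.157) without DKO library 3. Its call ended in 12 of 22 alternatives, joint calling among them, and the adjusted p lay between 0.0184 and 0.157 over the rest of the 22.

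Summed over cytosolic genes, immortalized libraries held 3878, 3521 and 3706 CPM in WT, 3226, 3286 and 3270.3 in MlxKO, 2679, 2948 and 2959.7 in MycKO and 2858, 2853 and 2816 in DKO. The mitochondrial sum without Lars2 was 317, 310.2 and 336 CPM in WT, 306, 317 and 314 in MlxKO, 274, 294 and 288 in MycKO and 291, 287 and 291 in DKO. With Lars2 it was 579, 516 and 635 CPM in WT, 434, 436 and 443 in MlxKO, 439.6, 403 and 454 in MycKO and 493, 454 and 412 in DKO. WT means over libraries 1 and 2 alone were 3699, 314 and 547 CPM for these sums, and 1436 CPM for the complex. Columns themselves totalled 915691 to 916232 CPM in MlxKO against 992479 to 1077213 in WT. As a share of its column the cytosolic sum was 0.378%, 0.355% and 0.344% in WT and 0.352%, 0.359% and 0.357% in MlxKO, which overlap, while MycKO, at 0.264%, 0.285% and 0.287%, and DKO, at 0.277%, 0.274% and 0.276%, lay below WT. By that measure the mitochondrial sum without Lars2 lay above WT in every MlxKO library, and the sum with Lars2 and the complex below it. Complex members summed to 1468 ± 104 CPM in WT, 1176 ± 36.6 in MlxKO, 944 ± 54.9 in MycKO and 1009.5 ± 18.7 in DKO (SD, n = 3). In primary cells the complex summed to 1405 ± 5.24 CPM in WT, 1418 ± 7.23 in MlxKO, 1141 ± 58.5 in MycKO and 1006 ± 15 in DKO.

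Related genes fell in 3 of 17 cases in immortalized DKO cells, with a median of -0.25, led by Xpot at -0.93 (adjusted p = 2.41e-04), or -0.88 without WT library 3. Polymerase III genes fell in 5 of 24 cases, with a median of -0.22, where 8.51% of all genes fell and 10.4% rose. Polr3g gave -1.98 (adjusted p = 0.00235) and -1.47 without WT library 3. Polr3b fell by log2 0.67 (adjusted p = 0.0046), and was at -0.56 without it. Of Atf4 and its other targets 13 fell and 2 rose, with a median of -0.51, including Cth at -1.61 (adjusted p = 0.00151) and Slc7a11 at -1.27 (adjusted p = 0.00121), which were -1.92 and -1.38 without WT library 3. Stc2, a secreted hormone, gave -1.67 (adjusted p = 0.0174), -0.99 without WT library 3 and -1.55 (adjusted p = 0.0598) without DKO library 2, with adjusted p between 1.59e-05 and 0.103 over all alternatives but joint calling. Leaving WT library 3 out gave 2, 3 and 15 genes lower in the related, polymerase III and ATF4 lists, with medians of -0.11, -0.09 and -0.47. Shares of all genes were then 10.1% lower and 12% higher.

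Against immortalized MycKO, DKO cells had 1 cytosolic gene higher and 1 lower, and 1 mitochondrial gene higher and 1 lower, with medians of -0.01 and 0.02, while 14.6% of all genes fell and 14.8% rose. Eprs gave 0.46 (adjusted p = 0.0172), Nars -0.45 (adjusted p = 0.00287), Rars2 0.42 (adjusted p = 0.0484) and Pars2 -0.60 (adjusted p = 0.0445), and only Nars passed in every alternative. The 4 calls became 8 without WT library 3, although it belongs to neither group and leaves the medians as they were, with 20.4% of all genes then lower and 20.4% higher. They became 2 without MlxKO library 1, 2 or 3, MycKO library 2 or 3, or DKO library 2 or 3. DKO libraries lay wholly below MycKO for 5 cytosolic and 2 mitochondrial genes and wholly above for 2 and 2, against 24.8% of all genes in each direction.

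Against immortalized MlxKO, with the same DKO libraries, 8 cytosolic genes and 1 mitochondrial gene fell, each set with a median of -0.15, while 13.9% of all genes fell and 16.3% rose. Kars gave -0.70 (adjusted p = 2.91e-04) and Vars -0.70 (adjusted p = 0.00451), both in every alternative. Farsa, Iars, Lars, Qars, Tars and Yars gave -0.52, -0.46, -0.43, -0.36, -0.35 and -0.27, and mitochondrial Vars2 gave -0.58. The 9 calls became 13 without WT library 3, where 20.6% of all genes were lower and 22.6% higher. They became 18 under scaling by library totals, 4 without MlxKO library 2, 5 without MlxKO library 3 or DKO library 2, and 3 without DKO library 3. Of all genes called, 29.2% rose under library totals, against 54.0% with the scaling as deposited. DKO libraries lay wholly below MlxKO for 13 cytosolic and 6 mitochondrial genes and wholly above for 2 and 2, against 26.5% and 27.9% of all genes.

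In immortalized cells the interaction passed for 5 cytosolic genes above 0 and 3 below, and for 4 mitochondrial genes above and 4 below, with medians of 0.08 and 0.00, against 47.4% of all genes in either direction. Eprs gave 1.21 (95% interval 0.82 to 1.60, adjusted p = 2.70e-04), or 1.32 without WT library 3, its DKO libraries lying above its MycKO and MlxKO libraries. Lars2 gave 1.15 (95% interval 0.51 to 1.78, adjusted p = 0.00703), or 1.02 without that library. Dars gave 0.87 (adjusted p = 0.00465), while Farsa gave -0.76 (adjusted p = 0.0102). The 16 calls became 24 without WT library 3, where 28.6% of all genes passed below 0 and 28% above, and 10 without MlxKO library 2 or DKO library 3. Omitting WT library 3 gave medians of 0.13 and -0.12, and scaling by library totals turned the cytosolic one to -0.10. Primary and immortalized tables were never tested against each other.

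Fold changes across genes varied with transcript GC content in immortalized cells. Spearman's rho between log2 fold change and GC content was 0.597 over 12863 genes in MlxKO, 0.400 in MycKO and 0.389 in DKO, and 0.562, 0.381 and 0.486 over the 37 synthetase genes. In primary cells rho over 13087 genes was 0.215, -0.095 and 0.232 in the MycKO, MlxKO and DKO comparisons, and 0.366, 0.246 and 0.373 over the 37. Genes are not independent replicates, so no p value was attached. After removing the trend with GC content and length, immortalized MlxKO had 1 cytosolic gene higher and 8 lower, with a median of -0.24, MycKO 1 and 12, and DKO 0 and 11. Under that correction 10.9% of all genes were higher and 16.3% lower in MlxKO, 21.6% and 25% in MycKO, and 10.4% and 11.2% in DKO.

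Some synthetase genes share sequence or ground with neighbours. On GRCm39 Kars lies at chr8:112719747-112738004 on the minus strand, Vars at chr17:35219871-35235305 on the plus strand, Farsb at chr1:78392766-78465534 on the minus strand, Eprs at chr1:185095101-185161840 on the plus strand and Lars2 at chr9:123195952-123291731 on the plus strand. Aars shares 11.2% of its 50-base words with other genes, chiefly Exosc6, which overlaps it by 1326 bases on the same strand. On opposite strands, exons of Cars2 and Naxd overlap by 4080 bases, those of Mars2 and Boll by 3827, those of Yars2 and Dnm1l by 3594, those of Mars1 and Ddit3 by 3576, and those of Iars2 and Rab3gap2 by 2884. The strand used in counting was not stated, so values for these genes are less certain.

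Promoter windows of 300 bases were matched for 27 of the 37 genes and searched on both strands for the E-box CACGTG and the C/EBP-ATF element TGATGNAA. Because 10 genes had no window, fewer than 80% of the set were covered, so a check of motif shares over the set is void and matches are given by gene. Aars, Iars and Tars held both, Farsb and Ears2 the E-box alone, and Yars and Gars the C/EBP-ATF element alone. Sequences are printed for the 3 genes with both motifs and for Farsb, the free gene with the largest primary DKO fall, with the motifs in capitals. They come from RefSeq on GRCm38.p6, at chr1:78488848-78489147 on the minus strand for Farsb, chr8:111033592-111033891 plus for Aars, chr13:49681880-49682179 plus for Iars and chr15:11399609-11399908 minus for Tars. A motif in a window is a match of letters, and binding was not measured.
Farsb: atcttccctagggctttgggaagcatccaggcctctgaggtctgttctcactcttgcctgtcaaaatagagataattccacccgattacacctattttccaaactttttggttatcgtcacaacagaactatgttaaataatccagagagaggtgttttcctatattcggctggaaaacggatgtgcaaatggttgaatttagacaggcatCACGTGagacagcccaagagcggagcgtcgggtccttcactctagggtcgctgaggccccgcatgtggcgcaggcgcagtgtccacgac
Aars: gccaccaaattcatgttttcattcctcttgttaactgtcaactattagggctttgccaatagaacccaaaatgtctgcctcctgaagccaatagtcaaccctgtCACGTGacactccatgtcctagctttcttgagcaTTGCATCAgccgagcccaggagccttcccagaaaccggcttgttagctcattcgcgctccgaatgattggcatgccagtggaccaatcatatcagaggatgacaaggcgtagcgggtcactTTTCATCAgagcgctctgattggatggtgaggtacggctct
Iars: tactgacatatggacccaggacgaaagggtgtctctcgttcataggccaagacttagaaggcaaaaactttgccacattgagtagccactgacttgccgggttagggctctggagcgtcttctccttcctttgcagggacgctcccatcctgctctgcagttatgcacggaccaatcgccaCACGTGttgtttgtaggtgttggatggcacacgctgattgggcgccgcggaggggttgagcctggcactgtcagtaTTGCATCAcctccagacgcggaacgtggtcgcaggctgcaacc
Tars: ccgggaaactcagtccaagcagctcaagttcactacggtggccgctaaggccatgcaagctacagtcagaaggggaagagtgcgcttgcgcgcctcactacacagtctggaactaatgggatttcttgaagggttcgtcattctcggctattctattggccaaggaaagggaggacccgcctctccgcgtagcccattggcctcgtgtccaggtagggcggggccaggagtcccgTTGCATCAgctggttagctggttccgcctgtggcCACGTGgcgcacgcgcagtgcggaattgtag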

How the data were processed

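The authors counted reads per gene in CLC Genomics Workbench 22 (GRCm39) and deposited the signal as CPM, 1 table for primary and 1 for immortalized cells, with a scaling between libraries that they did not state. Every deposited value was a whole multiple of the smallest step of its library within 0.1 read (100% of values), so reads were recovered for edgeR 4.0.16 and DESeq2 1.42.0. Members, lists and comparisons were fixed with earlier results of these data known. From log2(CPM + 1), limma 3.58.1 in R 4.3.3 fitted the 4 groups of each table together with a trended prior over genes reaching 1 CPM in 3 or more of the 12 libraries. The Benjamini-Hochberg threshold was 0.05 over all genes tested. Members described singly were the 3 cytosolic and 2 mitochondrial genes with the largest change in each knockout, the 2 largest interactions and up to 3 genes of each related list. Alternatives were pseudocounts, filters, scalings, other tools, fits of the compared groups alone and omission of each library. The correction for GC content and length was chosen after seeing the data. The code was tested on simulated data.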

Additional observations from a re-analysis of the deposited data

Results flagged for a closer look

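Synthetase genes were picked out here because the change with loss of both Myc and Mlx differed from the sum of the single losses, with a limma adjusted p under 0.05. In primary cells this log2 difference was -0.88 for Lars2, -0.50 for Sars, -0.49 for Wars, -0.40 for Cars, -0.38 for Rars, -0.28 for Aars and -0.27 for Eprs. In immortalized cells it was below 0 for 7 genes, at -0.79 for Pars2, -0.76 for Farsa, -0.75 for Vars2, -0.70 for Aars2, -0.67 for Hars, -0.59 for Kars and -0.44 for Tars2. It was above 0 for 9 genes, at 0.55 for Rars2, 0.60 for Gars, 0.64 for Lars, 0.72 for Farsb, 0.80 for Wars2, 0.85 for Nars2, 0.87 for Dars, 1.15 for Lars2 and 1.21 for Eprs. These were 7 and 16 of 37 synthetase genes, while 13.5% and 47.4% of all genes passed the same test in primary and immortalized cells, so the immortalized share was no higher than that of all genes. All 7 primary values lay below 0, where 6.07% of all genes passed. All groups of a table share their WT libraries, and the cause of the differences was not tested.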

How the results depend on the processing

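Counts of synthetase genes called moved with single libraries. Leaving out 1 library at a time gave 16 to 20 calls for primary MycKO (20 with all), 1 to 3 for MlxKO (3), 23 to 26 for DKO (25), 6 to 12 for DKO against MycKO (10), 22 to 27 for DKO against MlxKO (26) and 4 to 9 for the interaction (7). In immortalized cells it gave 11 to 23 for MycKO (16), 7 to 19 for MlxKO (16), 5 to 12 for DKO (10), 2 to 8 for DKO against MycKO (4), 3 to 13 for DKO against MlxKO (9) and 10 to 24 for the interaction (16). The GC and length correction gave 5, 17 and 13 for primary MlxKO, DKO against MycKO and the interaction. Fitting only the groups compared gave 9, 8, 4 and 14 for immortalized MycKO, MlxKO, DKO and DKO against MlxKO. No filter gave 2 for immortalized DKO against MycKO, and library totals gave 18 for DKO against MlxKO. Among values of synthetase, related, polymerase III and ATF4-target genes that passed the threshold with or without the change, direction turned under the GC and length correction for Aars in primary MycKO (-0.12), for Gtf3c1 in immortalized MycKO (-0.19), for Brf1 (-0.0564), Gtf3a (-0.0049) and Phgdh (-0.33) in immortalized MlxKO and for Phgdh in the immortalized interaction (0.28), and without WT library 3 for Vldlr in immortalized DKO (-0.47, in a range up to 0.61); the cause was not tested. Under library totals the share of called genes that rose went from 48.3% to 31.4% in primary MycKO, 42.2% to 53.8% in MlxKO, 48.5% to 37.2% in DKO and 47.3% to 32.4% in DKO against MlxKO. In immortalized cells it went from 49.0% to 69.9% in MlxKO, 54.0% to 29.2% in DKO against MlxKO and 49.9% to 37.2% in the interaction. The median over all genes then lay at -0.12 in primary DKO against MlxKO, and at 0.16, -0.16 and -0.18 in immortalized MlxKO, DKO against MlxKO and the interaction. No paired analysis was possible because the columns carry library numbers that nothing ties to the replicate numbers of the labels, and the planned replicate block was not run.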
